A study of Neurospora crassa with 14 samples.

Results

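Transcripts of 8 genes of heterotrimeric G protein and cyclic AMP (cAMP) signalling were followed in mycelium of the filamentous fungus Neurospora crassa. They are the Gα genes gna-1 (NCU06493), gna-2 (NCU06729) and gna-3 (NCU05206), the Gβ gene gnb-1 (NCU00440), the Gγ gene gng-1 (NCU00041), the adenylyl cyclase gene cr-1 (NCU08377), and the genes of the catalytic and regulatory subunits of protein kinase A, pkac-1 (NCU06240) and mcb (NCU01166). The genes were taken by locus tag for their place in the pathway, by a rule that uses no measured value, although earlier results of these data were known when the list was made. All 8 were listed in each of the 5 tables, out of 9380 genes listed in all of them.

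In this pathway a receptor that spans the membrane catches a signal and lets a Gα subunit exchange GDP for GTP, which frees it from the Gβγ dimer. Gα proteins of N. crassa act on adenylyl cyclase, whose product cAMP binds the regulatory subunit of protein kinase A and releases the active catalytic subunit. The pathway is known in this fungus for its part in hyphal growth, aerial hyphae, conidiation, stress tolerance and female fertility.

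The study asked how transcription changes when subunits of the RPD3L and RPD3S histone deacetylase complexes are lost or deacetylases are inhibited. Messenger RNA was sequenced from 14 libraries in 7 groups of 2: strains labelled as deleted for sds3 (NCU01599), rlp1 (NCU09007), rlp2 (NCU02898) or eaf-3 (NCU06788) with a wild type group, and a reporter strain with 5 ul of Trichostatin A (TSA, a histone deacetylase inhibitor) or with 0 ul. The reporter strain, N6279 in all 4 TSA libraries, was his-3, was fed histidine, and carried hph under the NCU05173 promoter and nat-1 under the NCU07152 promoter. All cultures were 5 ml of sucrose minimal medium shaken for 16 h at 32 °C. Each deletion group and the wild type group held 2 strains, while both TSA groups were biological replicates of 1 strain. The TSA concentration is not given in the labels.

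All values come from the authors' deposited table of each comparison or were computed from it. The tables give a normalized average signal, a log2 fold change, a p-value and an adjusted p, and no value per library, so values in single libraries and the sequencing depth are unknown here. The value after ± is the standard error that the fold change and its p-value imply, with 2 libraries a group. The words rose and fell are kept for genes whose deposited adjusted p lay under 0.05. Levels of a group are implied: they follow from the average and the fold changes if that average weighs all 10 deletion and wild type libraries equally, which the files do not state.

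The labels were checked first on the deleted genes. By the authors' deposited tables eaf-3 changed by -8.95 ± 1.48 in its own deletion group and rlp2 by -2.95 ± 0.32, but sds3 by only -0.76 ± 0.19 (to 58.9% of wild type, 95% interval 45.3% to 76.7%) and rlp1 by -1.03 ± 0.33 (to 49.0%, 31.5% to 76.4%). In the sds3 and rlp1 comparisons the named gene was thus lower than in wild type but far from absent, so these groups are called sds3-labelled and rlp1-labelled below. The rlp1 transcript was at 59.3% of wild type without eaf-3 too (38.2% to 92.0%), which did not pass in the authors' deposited table (adjusted p = 0.0596). The hyphal genes hex-1 (Woronin body), pma-1 (plasma membrane ATPase) and cot-1 (a kinase of hyphal growth) had averages from 4270 to 91371 in the deletion tables and from 4363 to 93941 in the TSA table. Of these, pma-1 fell in the sds3-labelled group (-0.87 ± 0.20) and cot-1 fell with TSA (-0.84 ± 0.20) in the authors' deposited tables. Of 6 conidiation genes (eas, con-6, con-8, con-10, con-13 and fl), 4 rose in the sds3-labelled group, 6 in the rlp1-labelled, 2 without rlp2, 2 without eaf-3 and 1 with TSA, and none fell. Their median log2 fold changes were 2.78, 3.66, 1.81, 1.71 and 0.78 in that order, and their deletion-table averages ran from 14.3 to 83554. These averages are not values of single groups, so they do not show that each gene was above 0 in every group. Of 4 genes of sexual tissue (poi-2, app, spo11 and asd-1), 1 rose and 2 fell in the sds3-labelled group, and 2, 3, 2 and 1 rose in the other 4 comparisons. Over all tested genes 19%, 14.6%, 6.99%, 20.2% and 5.15% rose in the same order of comparisons, and 15.7%, 8.61%, 4.02%, 11.5% and 3.62% fell. The counts of these gene lists were not tested against those shares. The part of such cells in the values below was not tested, and in these bulk samples more cells of a type cannot be told apart from more RNA per cell.

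At most 2 of the 8 genes were called in any comparison. The counts were not tested against the shares of all genes given beside them, and with 8 genes they could not be set apart closely. In the sds3-labelled group 1 of 8 rose (gna-2) and 1 fell (gna-1), where 34.6% of all tested genes were called (19% higher, 15.7% lower). In the rlp1-labelled group 1 of 8 fell (gna-1) and none rose, against 23.2% of all genes called (14.6% higher, 8.61% lower). Without eaf-3, 1 of 8 fell (pkac-1) and none rose, against 31.7% called (20.2% higher, 11.5% lower). Without rlp2 none of the 8 was called by the authors' test, and none had an unadjusted p under 0.05, against 11% of all genes called (6.99% higher, 4.02% lower). With TSA 2 of 8 fell (gna-1 and gna-2) and none rose, against 8.77% called (5.15% higher, 3.62% lower).

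The median absolute log2 fold change of the 8 genes was 0.21 in the sds3-labelled group, 0.09 in the rlp1-labelled, 0.14 without rlp2 and 0.21 without eaf-3. Over all genes tested these medians were 0.58, 0.47, 0.32 and 0.52. Over genes with an average of at least 500, a bound that all 8 genes pass, they were smaller, at 0.46, 0.37, 0.26 and 0.36. No absolute value among the 8 passed 0.58 in any deletion. Under TSA the order was the other way, with a median absolute change of 0.60 for the 8 genes and 0.41 for all genes. For genes with an average of at least 500 it was 0.34. All 8 lay below the untreated control there (median log2 fold change -0.60), while 55.3% of all tested genes, and 64.0% of those with an average of at least 500, lay below 0. The 8 genes in the TSA libraries share those libraries and their normalization, so they are not 8 separate measurements. Of the 3 hyphal genes, cot-1 fell in the same libraries (-0.84 ± 0.20), pma-1 did not pass (-0.78 ± 0.30, adjusted p = 0.0823) and hex-1 did not pass with a value above 0 (0.14 ± 0.30, adjusted p = 0.865) in the authors' deposited table. The part of hyphal content in the values of the 8 genes was not tested.

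**Figure D1:**
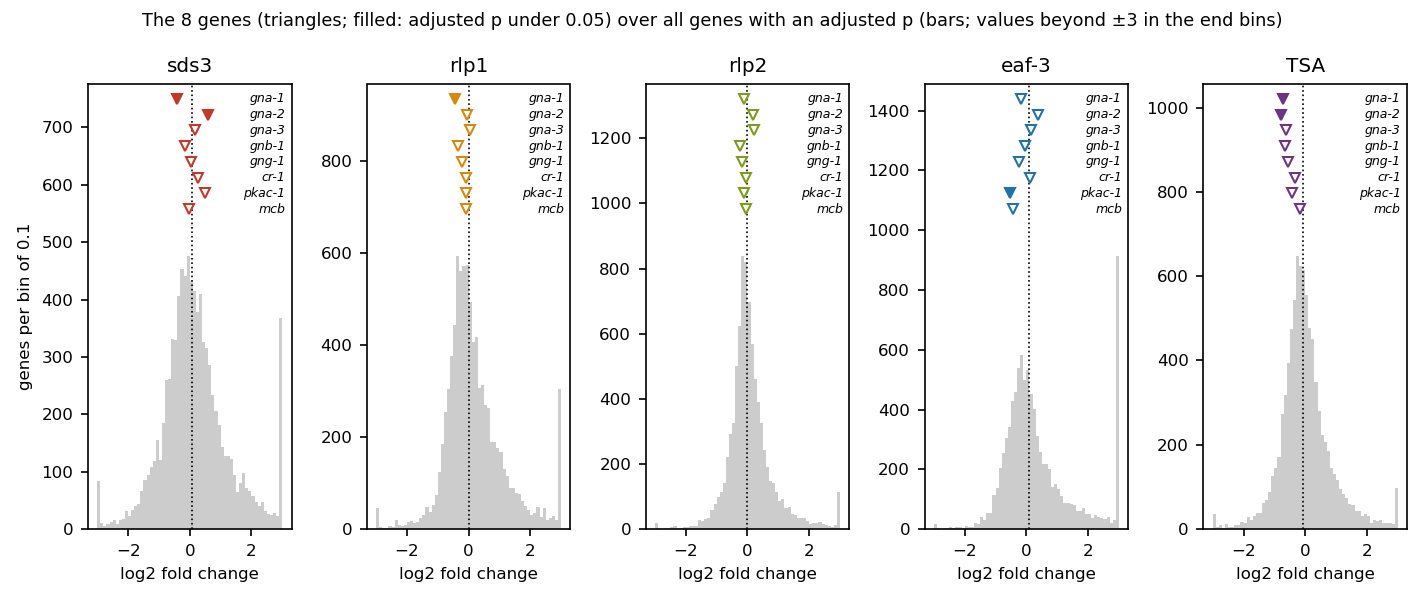
Log2 fold changes of the 8 genes (triangles, 1 height per gene, filled where the adjusted p lay under 0.05) above the distribution over all genes with an adjusted p (grey bars, genes per bin, with the median dotted) in the 5 comparisons. The triangles stay within 0.58 of 0 in the deletion comparisons, and all 8 lie left of 0 in the TSA comparison, from -0.78 to -0.16.

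The Gα gene gna-1, whose product belongs to the Gαi family and is needed for normal growth and female fertility, fell in 3 of the 5 comparisons. Its implied level was 1955 in the sds3-labelled group, 1919 in the rlp1-labelled, 2399 without rlp2 and 2282 without eaf-3, against 2578 in wild type. Wild type thus had the highest of the 5 levels, and the rlp1-labelled group the lowest. In the authors' deposited table gna-1 fell by 0.40 ± 0.16 on the log2 scale in the sds3-labelled group (adjusted p = 0.0426), or to 75.8% of wild type (95% interval 60.8% to 94.6%). It fell by 0.43 ± 0.16 in the rlp1-labelled group in the authors' deposited table (adjusted p = 0.0405), or to 74.4% (59.7% to 92.8%). Both adjusted p-values lie just under the threshold, and they ran up to 0.0443 and 0.0469 over the other adjustments tried. Values without rlp2 (-0.10 ± 0.16) and without eaf-3 (-0.18 ± 0.16) did not pass in the authors' deposited tables.

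With TSA gna-1 fell by 0.73 ± 0.21 in the authors' deposited table (adjusted p = 0.0116), to 60.1% of the untreated level (45.0% to 80.4%). It had the smallest adjusted p of the 8 genes in this comparison. The difference from the sds3 and rlp1 effects did not pass its own test, at -0.33 ± 0.27 for TSA minus sds3 and -0.31 ± 0.27 for TSA minus rlp1.

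For gna-2, which encodes a Gα whose loss alone has mild effects and which overlaps in function with the other Gα proteins, the direction differed between comparisons. Implied levels were 1208 in the sds3-labelled group, 787 in the rlp1-labelled, 917 without rlp2 and 1058 without eaf-3, against 808 in wild type. It rose by 0.58 ± 0.22 in the sds3-labelled group in the authors' deposited table (adjusted p = 0.0268), to 149% of wild type (111% to 201%). Without eaf-3 its value of 0.39 ± 0.22 did not pass in the authors' deposited table (adjusted p = 0.167), nor did those in the rlp1-labelled group (-0.04 ± 0.22) and without rlp2 (0.18 ± 0.22). With TSA gna-2 fell, by 0.78 ± 0.25 in the authors' deposited table (adjusted p = 0.0247), to 58.1% of untreated (41.4% to 81.6%). This fall no longer passed once all TSA changes were centred on the median of -0.08 over genes with an average of at least 10 (-0.71, adjusted p = 0.0549).

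The third Gα gene, gna-3, encodes the subunit known to keep adenylyl cyclase protein at its normal amount. Its implied levels of 756 in the sds3-labelled group, 702 in the rlp1-labelled, 775 without rlp2 and 751 without eaf-3, against 675 in wild type, were the most even of the 8 genes, with a highest level 1.15 times the lowest. No change passed in any of the authors' deposited tables. The highest value was 0.20 ± 0.20 without rlp2, whose interval of 87.0% to 152% of wild type still allows a change in either direction. The TSA value in the authors' deposited table was -0.63 ± 0.37 (adjusted p = 0.331), close in size to those of gna-1 and gna-2 but with a wider error. The Gα genes are related in sequence, and whether reads were shared between them in the counting could not be checked.

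**Figure D2:**
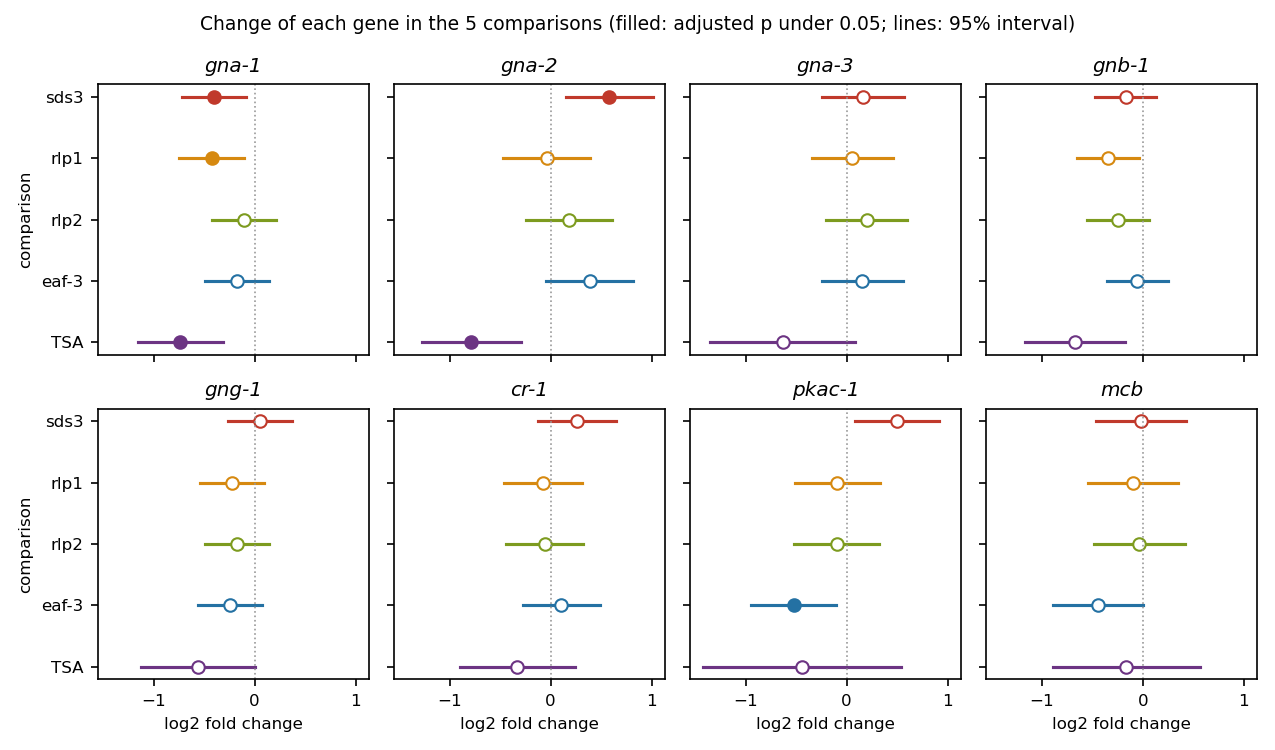
Log2 fold change of each of the 8 genes in the sds3, rlp1, rlp2, eaf-3 and TSA comparisons (points, filled where the adjusted p lay under 0.05) with 95% intervals computed from the implied standard error (lines). Filled are 6 of the 40 points: gna-1 in 3 comparisons, gna-2 in 2 with opposite signs, and pkac-1 without eaf-3. Of all tested genes 34.6%, 23.2%, 11%, 31.7% and 8.77% were called in the same order of comparisons. The points share libraries, and their count was not tested against these shares.

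The subunits of the Gβγ dimer, which anchors Gα at the membrane and signals on its own once freed, passed the test in none of the 5 comparisons. The Gβ gene gnb-1 had implied levels of 2461 in the sds3-labelled group, 2179 in the rlp1-labelled, 2333 without rlp2 and 2666 without eaf-3, against 2764 in wild type. Wild type was again highest, but the lowest value, in the rlp1-labelled group (-0.34 ± 0.15), had an adjusted p of 0.0905 in the authors' deposited table. Its TSA value of -0.67 ± 0.25 had an unadjusted p of 0.00853 and an adjusted p of 0.0783 in the authors' deposited table, or 62.9% of untreated (44.5% to 88.9%).

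The Gγ gene gng-1 had implied levels of 2425 in the sds3-labelled group, 1993 in the rlp1-labelled, 2062 without rlp2 and 1969 without eaf-3, against 2333 in wild type. Its values in the authors' deposited tables ran from -0.24 ± 0.16 without eaf-3 to 0.06 ± 0.16 in the sds3-labelled group. The 95% intervals of the 4 deletions together span 67.7% to 130% of wild type. With TSA it was at 67.9% of untreated (45.9% to 100.3%) and did not pass (adjusted p = 0.254) in the authors' deposited table.

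The adenylyl cyclase gene cr-1, which encodes the enzyme that makes cAMP, passed the test in no comparison. Implied levels were 2698 in the sds3-labelled group, 2143 in the rlp1-labelled, 2165 without rlp2 and 2426 without eaf-3, against 2255 in wild type. In the authors' deposited tables its values were 0.26 ± 0.20, -0.07 ± 0.20, -0.06 ± 0.20 and 0.11 ± 0.20 in the same order of deletions, and -0.33 ± 0.29 with TSA (adjusted p = 0.594). The intervals allow at most 156% of the wild type level, in the sds3-labelled group, and at least 72.8%, in the rlp1-labelled group. Among the 8 genes cr-1 was one of 5 whose values lay on both sides of 0.

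Among the 8 genes the widest spread between the deletion comparisons was that of pkac-1, of protein kinase A. The catalytic subunit gene pkac-1 had an implied level of 2506 in the sds3-labelled group, 1663 in the rlp1-labelled, 1658 without rlp2 and 1234 without eaf-3, against 1774 in wild type. The highest level, in the sds3-labelled group, was 2.03 times the lowest, without eaf-3, and wild type lay between them. Without eaf-3 pkac-1 fell by 0.52 ± 0.22 in the authors' deposited table (adjusted p = 0.0476), to 69.6% of wild type (51.9% to 93.2%). The adjusted p ran up to 0.0495 over the other adjustments. In the sds3-labelled group its value of 0.50 ± 0.21, or 141% of wild type (106% to 189%), just missed the threshold in the authors' deposited table (adjusted p = 0.0562). With TSA the value was -0.44 ± 0.50 in the authors' deposited table, which had the largest error of the 8 genes.

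The regulatory subunit gene mcb, whose product holds the kinase inactive until cAMP binds, had implied levels of 2174 in the sds3-labelled group, 2058 in the rlp1-labelled, 2150 without rlp2 and 1619 without eaf-3, against 2199 in wild type. All but the level without eaf-3 lay close to wild type. That value, -0.44 ± 0.23 in the authors' deposited table, did not pass (unadjusted p = 0.0531, adjusted p = 0.127). Both subunit genes of the kinase thus had their lowest implied level without eaf-3, as did gng-1, and of these only pkac-1 passed there. For mcb no difference between eaf-3 and another deletion passed in the tests of differences given below.

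**Figure D3:**
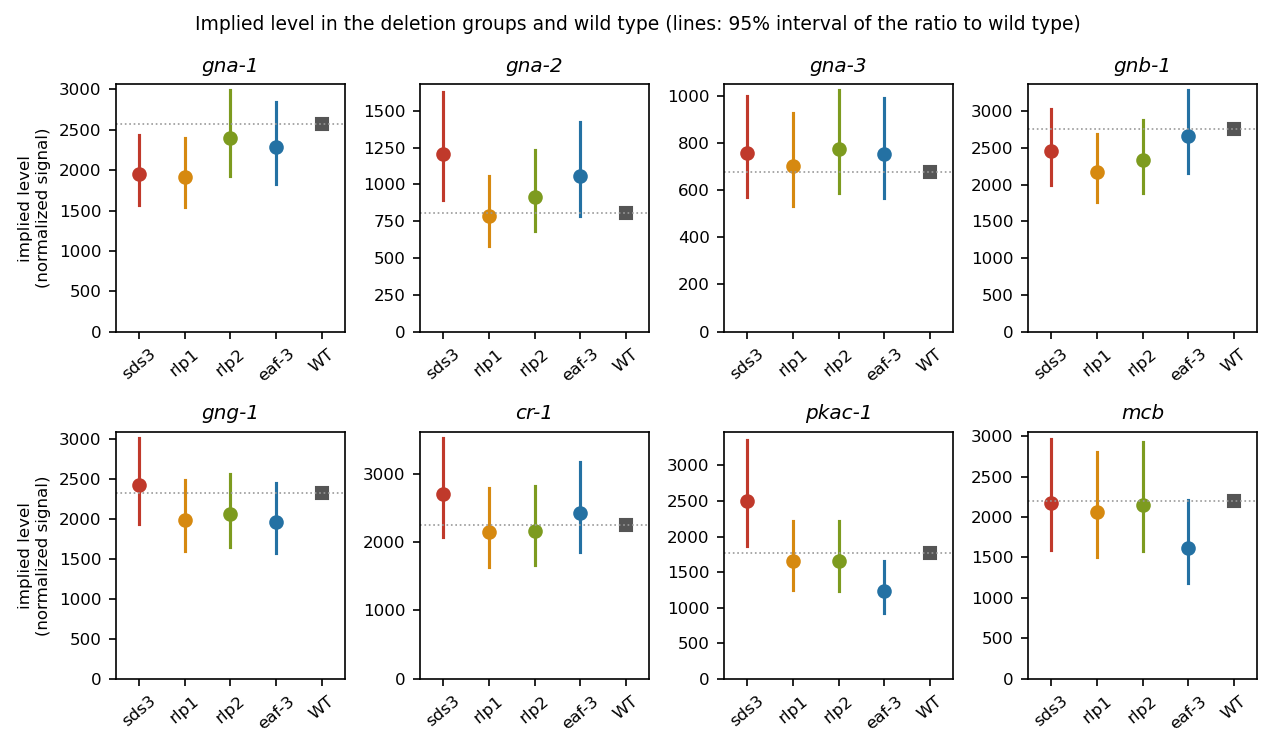
Implied level of each of the 8 genes (normalized signal, axes from 0) in the sds3, rlp1, rlp2 and eaf-3 deletion groups (circles) and in wild type (squares, dotted line). Vertical lines show the 95% interval of the ratio to wild type, with the wild type level held fixed. For pkac-1 the level runs from 2506 in the sds3-labelled group to 1234 without eaf-3, while for gna-3 all 5 levels lie between 675 and 775.

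The order of levels between groups was tested as the difference of log2 fold changes, in 10 pairs of comparisons, with p-values adjusted over all genes within a pair. For pkac-1 the eaf-3 effect lay below the sds3 effect by more than the error (-0.52 against 0.50, a difference of -1.02 ± 0.30, adjusted p = 0.00695). This was the only one of the 8 genes called in the eaf-3 minus sds3 pair, whose sds3 side is the group with sds3 itself still at 58.9% of wild type, in a pair where 20.3% of all genes differed. For gna-2 the TSA effect lay below the sds3 effect (-0.78 against 0.58, difference -1.36 ± 0.33, adjusted p = 0.0014) and below the eaf-3 effect (difference -1.17 ± 0.33, adjusted p = 0.00699). In these pairs 11% and 12.2% of all genes differed. TSA minus rlp2 for gna-2 was -0.96 ± 0.33 and did not pass (adjusted p = 0.0656).

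None of the 8 genes passed this test in the other 7 pairs. Genes with an unadjusted p under 0.05 in them numbered 1 for sds3 minus rlp1, 1 for sds3 minus rlp2, 1 for TSA minus rlp1 and 3 for TSA minus rlp2, and none for rlp1 minus rlp2, eaf-3 minus rlp1 and eaf-3 minus rlp2. Background shares in these pairs ran from 0.99% (rlp1 minus rlp2) and 4.64% (TSA minus rlp2) through 5.9% (TSA minus rlp1), 7.43% (sds3 minus rlp2), 9.41% (eaf-3 minus rlp2) and 10.2% (sds3 minus rlp1) to 13% (eaf-3 minus rlp1). The test treats both errors as independent, although the deletions share the wild type libraries. When a covariance for the shared libraries was included, gna-2 (0.62 ± 0.22, adjusted p = 0.0226) and pkac-1 (0.59 ± 0.21, adjusted p = 0.0262) also differed for sds3 minus rlp1, and pkac-1 for sds3 minus rlp2 (0.60 ± 0.21, adjusted p = 0.0285). No 2 neighbours in the order of the 5 implied levels differed for any of the 8 genes in either test. Beyond the values named here, the widest difference between 2 deletion comparisons was -0.43 ± 0.30 for pkac-1, eaf-3 minus rlp1, with an interval from -1.03 to 0.16.

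**Figure D4:**
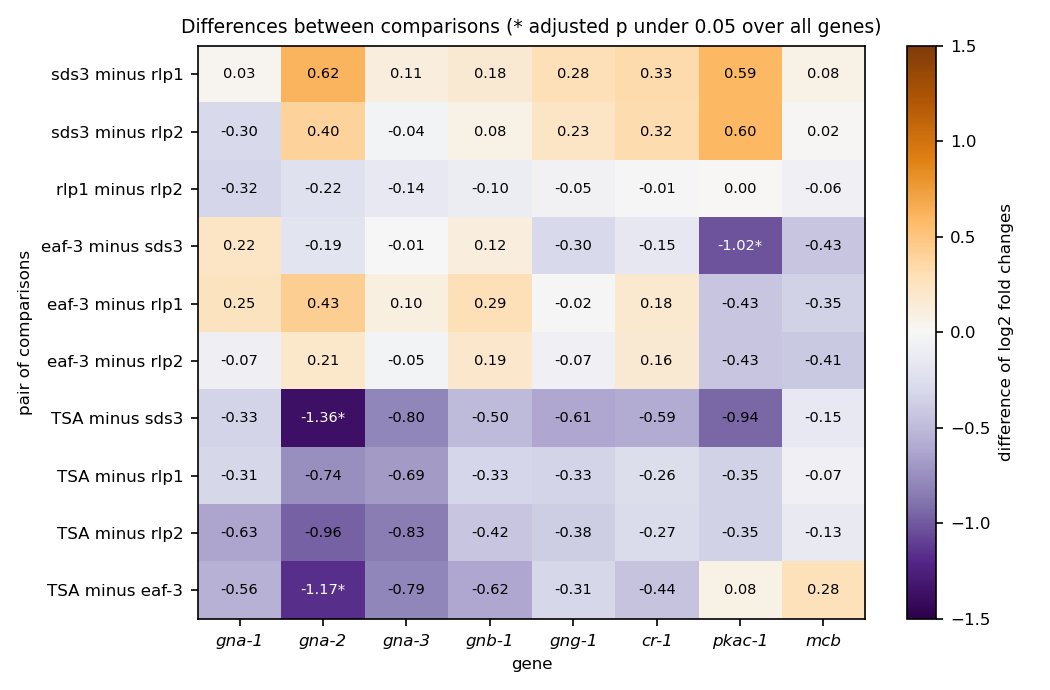
Difference of log2 fold changes between 2 comparisons (rows, first minus second) for each of the 8 genes (columns), with an asterisk where the adjusted p over all genes lay under 0.05. The asterisks mark pkac-1 for eaf-3 minus sds3 (-1.02) and gna-2 for TSA minus sds3 (-1.36) and TSA minus eaf-3 (-1.17).

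Around the 8 genes, 17 other genes of the pathway were found by symbol. In the sds3-labelled group 5 of 17 rose and 5 fell, in the rlp1-labelled 7 rose and 4 fell, without rlp2 1 rose and 1 fell, without eaf-3 4 rose and 3 fell, and with TSA 1 rose and none fell. The background shares are those given above for each comparison. Medians of the 17 were 0.09, 0.39, 0.16, 0.03 and -0.24, against 0.07, 0.01, -0.01, 0.07 and -0.08 over all genes tested.

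All called changes of more than 2 on the log2 scale lay among the 9 receptors. Their signal was low: the authors' deposited averages for the deletions ran from 18.1 (gpr-1) to 293 (gpr-6). The other pathway genes had 355 (acon-2) to 28634 (cpc-2). The part of low signal in the size of these changes was not tested. Of the 9 receptors 3 rose and 2 fell in the sds3-labelled group, 5 rose and 2 fell in the rlp1-labelled, 1 rose and 1 fell without rlp2, 3 rose and 1 fell without eaf-3, and 1 rose with TSA. Of all tested genes 34.6%, 23.2%, 11%, 31.7% and 8.77% were called in that order. The pheromone receptor gene pre-2 rose by 6.23 ± 0.80 without eaf-3 (adjusted p = 3.81e-13), by 2.35 ± 0.83 in the rlp1-labelled group (adjusted p = 0.025) and by 2.38 ± 0.55 with TSA (adjusted p = 0.000733) in the authors' deposited tables. The other pheromone receptor gene, pre-1, rose by 1.60 ± 0.43 in the sds3-labelled and by 1.58 ± 0.43 in the rlp1-labelled group in the authors' deposited tables. The opsin gene nop-1 rose in the rlp1-labelled group (2.78 ± 0.73), without rlp2 (2.23 ± 0.73) and without eaf-3 (1.86 ± 0.74) in the authors' deposited tables.

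Among the gpr receptor genes, gpr-1, known for its part in perithecial development, rose in the rlp1-labelled group (2.96 ± 0.96) and without eaf-3 (4.04 ± 0.95) in the authors' deposited tables. Its average signal was 18.1 in the authors' deposited deletion tables. The carbon-sensing receptor gene gpr-4 rose in the sds3-labelled (1.33 ± 0.38) and rlp1-labelled groups (1.74 ± 0.38) in the authors' deposited tables, and gpr-6 rose in the sds3-labelled group (1.14 ± 0.45) and fell without eaf-3 (-1.32 ± 0.46). Falls came from gpr-2, in the sds3-labelled (-2.04 ± 0.45) and rlp1-labelled groups (-1.25 ± 0.42) and without rlp2 (-1.60 ± 0.42), and from gpr-3, in the sds3-labelled (-1.77 ± 0.28) and rlp1-labelled groups (-0.75 ± 0.27) in the authors' deposited tables. Of the 9 receptor genes, gpr-5 alone was called in none of the 5. The conidiation and sexual genes counted above moved in the same comparisons, and their part in these values was not tested.

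Beside the core pathway, ric8, which encodes an exchange factor for Gα proteins, rose in the rlp1-labelled group (0.85 ± 0.18) and fell without eaf-3 (-0.54 ± 0.18) in the authors' deposited tables. The Gβ-like gene cpc-2, of the RACK1 type, fell in the sds3-labelled (-1.42 ± 0.33) and rlp1-labelled groups (-0.86 ± 0.33) and without eaf-3 (-0.86 ± 0.33) in the authors' deposited tables. The gene of the other catalytic subunit of protein kinase A, pkac-2, rose by 1.40 ± 0.24 in the sds3-labelled group (adjusted p = 6.97e-08) and by 0.93 ± 0.24 in the rlp1-labelled (adjusted p = 0.000951) in the authors' deposited tables. Its value without eaf-3, 0.22 ± 0.24, did not pass in the authors' deposited table, in the comparison where pkac-1 fell. The gene acon-2, a phosphodiesterase gene of the pathway, was called in none of the 5, and neither was bd, also known as ras-1.

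The Ras-like gene krev-1 fell in the sds3-labelled group (-0.88 ± 0.21) in the authors' deposited table. Of the enzymes of glycogen synthesis, which protein kinase A signalling acts on, the glycogen synthase gene gsy-1 (gsn) fell in the sds3-labelled (-0.75 ± 0.17) and rlp1-labelled groups (-0.53 ± 0.17), and the glycogenin gene gnn rose in the sds3-labelled group (0.67 ± 0.26) and without eaf-3 (1.13 ± 0.26) in the authors' deposited tables.

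**Figure D5:**
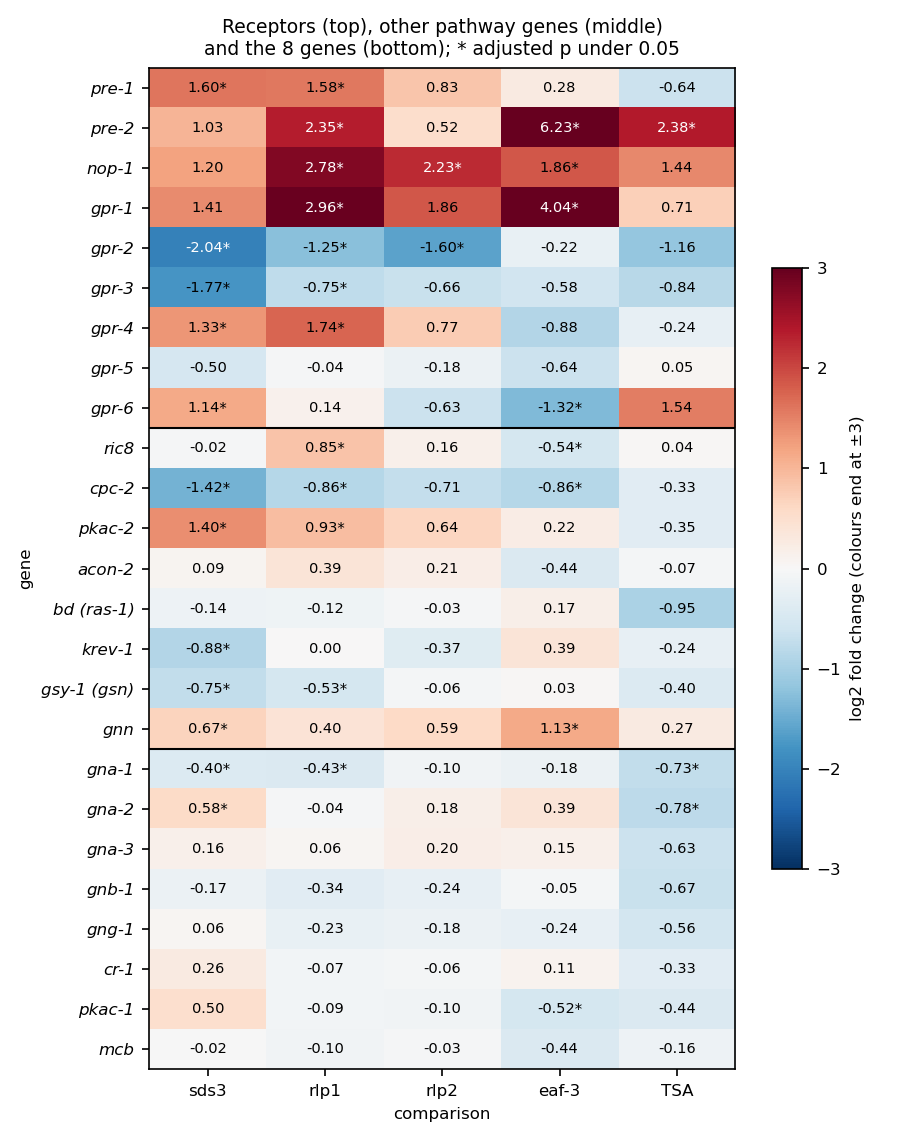
Log2 fold changes of 9 receptor genes (top block), 8 other pathway genes (middle) and the 8 core genes (bottom) in the 5 comparisons, with an asterisk where the adjusted p lay under 0.05. The strongest colours lie in the receptor block, for example pre-2 without eaf-3 (6.23), while no core gene passes 0.78 in size.

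The genes on each side of the 8 were read in the gene order of the reference to see whether a change was shared with them. All 8 lie at least 53 genes from an end of their chromosome. Of 14 neighbours with an adjusted p, 3 rose and 1 fell in the sds3-labelled group. In the rlp1-labelled group 3 of 14 rose, 2 of 13 rose without rlp2, and with TSA none of 14 was called. Without eaf-3, 1 of 14 rose and 1 fell. Of all tested genes 34.6%, 23.2%, 11%, 31.7% and 8.77% were called in the sds3, rlp1, rlp2, eaf-3 and TSA comparisons. The counts were not tested against these shares. Beside gna-1, which fell in the sds3- and rlp1-labelled groups, NCU16638 rose in both (0.91 ± 0.27 and 1.44 ± 0.26) in the authors' deposited tables, and NCU06491 on the other side passed in neither. Beside pkac-1, which fell without eaf-3, NCU06242 also fell there (-0.78 ± 0.25, adjusted p = 0.00818) in the authors' deposited table, while NCU06239 did not pass (-0.29 ± 0.23). The genes flanking gna-2, NCU17014 and NCU06730, had averages of 0.573 and 5.60 in the authors' deposited deletion tables. NCU17014 had no adjusted p in any comparison and could not be called. NCU06730 had none without rlp2 and did not pass in the other comparisons. The gene NCU00042 beside gng-1 rose in the sds3-labelled (0.93 ± 0.19) and rlp1-labelled groups (1.38 ± 0.18) and without rlp2 (1.09 ± 0.19) in the authors' deposited tables, while gng-1 passed in none.

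Further calls among the neighbours were as follows. NCU16638 rose without rlp2 too (1.09 ± 0.26), NCU08376 beside cr-1 rose without eaf-3 (0.72 ± 0.27), NCU00441 beside gnb-1 rose in the rlp1-labelled group (0.50 ± 0.20), NCU00040 beside gng-1 fell in the sds3-labelled group (-0.79 ± 0.27), and NCU01167 beside mcb rose there (2.18 ± 0.55) in the authors' deposited tables. Of the remaining neighbours, NCU16399 beside cr-1, NCU16898 and cul-1 beside gna-3 and NCU01165 beside mcb were called in no comparison. NCU00439 beside gnb-1 had no adjusted p in the deletion comparisons and was not listed for TSA, so it could not be called.

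The likeness of other genes was measured as the Euclidean distance between their 5 log2 fold changes, over 1013 genes with a symbol and an average of at least 100. Of these 5 values, 4 share the wild type libraries. Nearest to cr-1 was wc-2, of the White Collar complex (distance 0.10), then un-17 (0.16), where the median distance over the 1013 genes was 1.12. Nearest to gna-3 were tca-4 (0.11) and yif1 (0.24), and to gnb-1 hat-6 (0.13) and ro-11 (0.18). For gng-1 they were stk-16 (0.12) and set-4 (0.15), and for mcb nuo20.9 (0.18) and csn-7 (0.21). For the called genes the nearest distances were longer: gna-1 lay nearest to gpit-2 (0.28) and nuo30.4 (0.30), gna-2 to tah-4 (0.26) and vib-1 (0.34), and pkac-1 to nuo11.6 (0.34) and stk-48 (0.37). The distance uses the same fold changes as the calls, so its length is no separate result. Errors of single fold changes of the 8 genes ran from 0.15 to 0.50, so which genes lie nearest is not settled. None of the 8 genes was among the nearest of another.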

How the data were processed

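Messenger RNA of 14 Neurospora crassa libraries was made with a stranded kit, per the labels' protocols. Per the submitters' processing notes the tools were DESeq2 1.24.0, STAR 2.7.3a and RSEM 1.3.1. What each did, the genome build and the annotation: not given in the sources used here. The 5 deposited tables hold, per the file headers, a normalized average signal, log2 fold change, p-value, adjusted p and category score of each gene; values per library are in 0 columns. The authors' deposited category score was nonzero exactly where a gene passed an adjusted p of 0.05 with a size above 2 in log2 fold change. All 9477 genes of the deletion tables have 1 deposited average signal. No gene had a log2 fold change of 0 in all 4 of them, while 20 genes of the TSA table had one of 0 with an average above 0, so that average covers other libraries too and no TSA levels were implied.

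Dividing the size of a log2 fold change by the normal quantile of its p-value gave the standard error. Differences between comparisons used the normal distribution, two-sided, with Benjamini-Hochberg adjustment over all genes. Intervals are normal 95% intervals. Symbols and gene order came from a RefSeq table (assembly NC12), which 9551 of 9552 identifiers matched; since the build of the files is not given, no coordinates or lengths are printed, and levels of different genes are not compared. Of the planned pathway symbols 17 were found and 11 were not, among them ric-8, a second spelling of ric8, which was found. The others not found were orp-1, phlp-1, bdm-3, pde-1, pde-2, cap-1, ras-2, gpn, gbn and gdn. The planned search for numbered rgs symbols returned no gene. Named were the 8 genes, every called pathway gene, both neighbours of each gene, and the 2 nearest genes by distance. The 8 genes and the lists were chosen with earlier results of these data known. Python 3.11.15, scipy 1.17.1 and pandas 2.3.3 were used.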

Additional observations from a re-analysis of the deposited data

Results flagged for a closer look

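The effect on pkac-1 differed between the group without eaf-3 and the sds3-labelled group, in which sds3 itself was still at 58.9% of wild type. In the authors' deposited tables it was -0.52 without eaf-3 and 0.50 in the sds3-labelled group, a difference of -1.02 on the log2 scale that passed the test of the difference (adjusted p = 0.00695).

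The effect on gna-2 differed between TSA and 2 of the deletion comparisons. By the authors' deposited tables it was -0.78 with TSA and 0.58 in the sds3-labelled group, a difference of -1.36 (adjusted p = 0.0014). Against the value without eaf-3 in the authors' deposited table, 0.39, the difference was -1.17 (adjusted p = 0.00699). The TSA comparison used another strain and its own control, so strain and treatment cannot be told apart in these 2 differences.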

How the results depend on the processing

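No called change of the 8 genes passed an adjusted p under 0.01 or the authors' category: the counts were 0 under each, against 2 in the sds3-labelled group, 1 in the rlp1-labelled, 1 without eaf-3 and 2 with TSA. Centring on the median log2 fold change left 1 call with TSA (gna-1). No value of the 8 genes changed sign under any alternative tried. Adjusting over every gene with a p-value, or over genes with an average of at least 10, left each count of the 8 genes as it was. Of the 17 other pathway genes, an adjusted p under 0.01 left 5 calls of 11 in the rlp1-labelled group, 1 of 2 without rlp2 and 3 of 7 without eaf-3, and the authors' category left 1 of 10 in the sds3-labelled group, 3, 1 and 2. A stricter threshold leaves fewer genes by its construction. With a covariance for shared wild type libraries, 2 genes differed for sds3 minus rlp1 and 1 for sds3 minus rlp2, where none did before. This alternative narrows the error by its construction, and the size of the covariance was assumed. Since the deletions do share those libraries, the test without a covariance takes too large an error in pairs of deletions. No paired analysis was possible because no file holds values per library, and for the same reason no library could be left out. Levels per kb were planned and not run, since the build of the files is not given. Depth is unknown here.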
